A study of Homo sapiens with 59 samples.

Results

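The FOX lineage factor genes are 10 members of the forkhead family that direct cells of the endoderm, the mesoderm and the nervous system: FOXA1, FOXA2, FOXA3, FOXC1, FOXC2, FOXF1, FOXF2, FOXL1, FOXP2 and FOXQ1. They were chosen by name, and each was followed at all of its annotated transcription start sites (46 of the 146431 starts of 20033 protein-coding genes in GENCODE 44) and over the gene with 10 kb on each side. ChIP-seq peak lists came from NCI-H661, an established line of lung large cell carcinoma that expresses DPPA2 and DPPA4, a pair of chromatin-binding proteins otherwise typical of the early embryo. The question asked of these genes was whether their histone marks differed after DPPA2/4 depletion or after inhibition of p300/CBP.

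In the knockdown experiment, 3 lines carried doxycycline-inducible miR30-type short hairpins in a PiggyBac vector, against DPPA2 (shDPPA2), DPPA4 (shDPPA4) or both (shDPPA2+4). The single lines were sorted for an mVenus marker, and shDPPA2+4 was made from shDPPA2 cells with a tagBFP-marked DPPA4 hairpin. Cells of each line were kept for 7 days with doxycycline at 2 µg/ml (DOX) or with water in its place (H2O). Each of H3K4me3 (replicates 1 and 2), H2AK119ub and H3K27me3 (both replicates 1 and 3) was profiled in 12 libraries. Separately, unmodified parental NCI-H661 cells were treated for 1 day with A-485 at 10 µM, an inhibitor of the histone acetyltransferase pair p300/CBP, or with DMSO. The inhibitor libraries were replicates 2 and 4 for H3K27ac, 3 and 4 for H2AK119ub and 2, 3 and 4 for H3K27me3, with SUZ12 in DMSO only. All lines are mixed populations of cells, so fewer cells or alleles with a mark and less of the mark per cell cannot be told apart. DOX in a line with a hairpin against no human gene was not analysed here, so depletion and DOX itself cannot be told apart.

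FOXA1, FOXA2 and FOXA3 are pioneer factors that open chromatin at enhancers of endoderm, lung and liver genes. FOXF1, FOXF2 and FOXL1 act in the mesenchyme of the lung and gut downstream of Hedgehog signals from the epithelium, and FOXC1 and FOXC2 act in the eye, the skeleton and the vessels. FOXQ1 was first studied in hair formation in mice, and FOXP2 is known for its role in the circuits of speech. Outside the tissues that use them, such genes are classical targets of Polycomb: PRC1 places H2AK119ub, and PRC2, whose core includes SUZ12, places H3K27me3. H3K4me3 marks CpG-rich starts, H3K27ac marks active starts and enhancers, and starts that carry both H3K4me3 and H3K27me3 are called bivalent.

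The genes lay in 2 clusters of neighbours and 4 separate loci (hg38, GENCODE 44). On chromosome 6, FOXQ1 (1312098 to 1314758) was followed by the start of FOXF2 (1389576 to 1395603) at 74818 bp and by FOXC1 (1609915 to 1613897) at 214312 bp from FOXF2, all on the plus strand. On chromosome 16, FOXF1 (86510527 to 86515422), FOXC2 (86566829 to 86569728) and FOXL1 (86576368 to 86583478) also lay on the plus strand, with the start of FOXL1 only 6640 bp from the end of FOXC2, so that their 10 kb flanks overlap. FOXA1 (chromosome 14, 37589552 to 37596059) and FOXA2 (chromosome 20, 22580998 to 22585455) lay on the minus strand, and FOXA3 (chromosome 19, 45863989 to 45873797) and FOXP2 (chromosome 7, 114086327 to 114693772) on the plus strand. FOXP2, with 30 annotated starts in 8 groups, was by far the most spread, and the other 9 members had 1 to 5 starts. Starts of other genes within 1500 bp were those of FENDRR at FOXF1, FOXC2-AS1 at FOXC2, MIR6720 at FOXF2 and, 795 bp away, the protein-coding SYMPK at FOXA3, so marks at these starts cannot be assigned to the FOX gene alone.

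Base composition separated the first start group of FOXP2 from its later ones. The promoter sequences that follow (RefSeq, GRCh38.p14, 250 bases before to 50 after the start, plus strand) show FOXQ1, with H3K4me3, H2AK119ub and H3K27me3, FOXC1, whose start window was filled by H3K4me3 in every library, FOXA3, with no H3K27me3, and the start of the canonical FOXP2 transcript, with H3K4me3 but few CG dinucleotides. Capitals mark each CG.
FOXQ1, chr6:1311848-1312147: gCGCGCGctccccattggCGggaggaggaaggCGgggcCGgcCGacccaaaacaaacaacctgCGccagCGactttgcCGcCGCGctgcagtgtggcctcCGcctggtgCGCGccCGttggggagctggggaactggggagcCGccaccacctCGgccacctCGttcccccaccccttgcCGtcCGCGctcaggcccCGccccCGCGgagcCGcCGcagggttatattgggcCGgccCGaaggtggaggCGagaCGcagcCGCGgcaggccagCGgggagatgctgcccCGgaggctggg
FOXC1, chr6:1609665-1609964: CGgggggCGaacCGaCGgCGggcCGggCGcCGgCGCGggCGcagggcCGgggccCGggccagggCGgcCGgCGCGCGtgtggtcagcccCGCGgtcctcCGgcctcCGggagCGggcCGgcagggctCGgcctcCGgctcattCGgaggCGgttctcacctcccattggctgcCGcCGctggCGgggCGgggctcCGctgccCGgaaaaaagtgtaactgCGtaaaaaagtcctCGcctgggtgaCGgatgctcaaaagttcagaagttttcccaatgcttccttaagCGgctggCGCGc
FOXA3, chr19:45864076-45864375: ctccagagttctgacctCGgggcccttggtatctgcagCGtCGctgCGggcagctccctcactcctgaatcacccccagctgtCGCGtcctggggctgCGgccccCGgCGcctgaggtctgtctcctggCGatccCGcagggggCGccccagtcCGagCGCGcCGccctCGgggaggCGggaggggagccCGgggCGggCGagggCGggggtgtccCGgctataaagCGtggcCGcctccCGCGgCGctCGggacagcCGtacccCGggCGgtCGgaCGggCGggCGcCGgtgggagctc
FOXP2, chr7:114414565-114414864: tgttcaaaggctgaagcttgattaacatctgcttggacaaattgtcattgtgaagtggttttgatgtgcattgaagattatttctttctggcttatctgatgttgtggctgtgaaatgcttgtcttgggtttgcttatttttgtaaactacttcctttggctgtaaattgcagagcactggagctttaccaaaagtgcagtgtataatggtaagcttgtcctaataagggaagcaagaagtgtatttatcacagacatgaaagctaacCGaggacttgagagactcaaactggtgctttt
These held 35 CG in FOXQ1, 40 in FOXC1, 37 in FOXA3 and 1 in FOXP2. Of 35116 RefSeq promoters of this length, 14.1% held at least as many as FOXQ1, 7.61% as FOXC1, 11.3% as FOXA3 and 96.0% as the FOXP2 promoter. RefSeq promoters were matched for 6 members (these 4, FOXA1 and FOXF2), and FOXA2, FOXC2, FOXF1 and FOXL1 had none in the table used. Counted on the genome in the same window around GENCODE starts, the median over all annotated starts was 13 CG. The first start group of FOXP2 held 43, FOXF1 38, FOXA1 34, FOXA2 21.5 and FOXC2 19, whereas the second start of FOXL1 held 6 and the 7 later groups of FOXP2 held 0 to 5.5.

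A start was called marked when at least 300 bp of the 3001 bp centred on it lay under peaks with a log2 fold over input above 1 and an FDR under 0.05. In H2O, 9 of the 10 members carried H3K4me3 at 1 or more starts in both replicates of each line, as did 14487 to 14540 of all 20007 gene symbols. H3K27me3 was found in both replicates at 7 members in shDPPA2, 5 in shDPPA4 and 7 in shDPPA2+4, against 2942, 2511 and 2802 of all genes in these lines. H2AK119ub was found at 9, 10 and 9 members, against 9302, 9590 and 9549 of all genes. Both H3K4me3 and H3K27me3 were found at 6, 4 and 6 members, against 1995, 1732 and 1910 of all genes. Among the other 34 genes of the FOX family, 26 to 27 carried H3K4me3, 7 to 9 H3K27me3 and 25 to 29 H2AK119ub. These shares are descriptions of lists of very different size, and the members were named for their known roles.

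The members differed in which marks they combined. FOXA1 and FOXA3 had H3K4me3 and H2AK119ub at their starts in every H2O library and no H3K27me3 base in any of the 12 knockdown libraries. FOXF1, FOXF2, FOXC2 and FOXQ1 had all 3 marks in every H2O library. FOXA2 had H3K27me3 in every knockdown library but H3K4me3 in only 1 of 6 DOX and 2 of 6 H2O libraries, the only member whose starts mostly lacked H3K4me3. FOXC1 reached 300 bp of H3K27me3 in 6 of 6 DOX and 5 of 6 H2O libraries. FOXL1 reached it in only some libraries, and FOXP2 at its first start group alone.

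**Figure D1:**
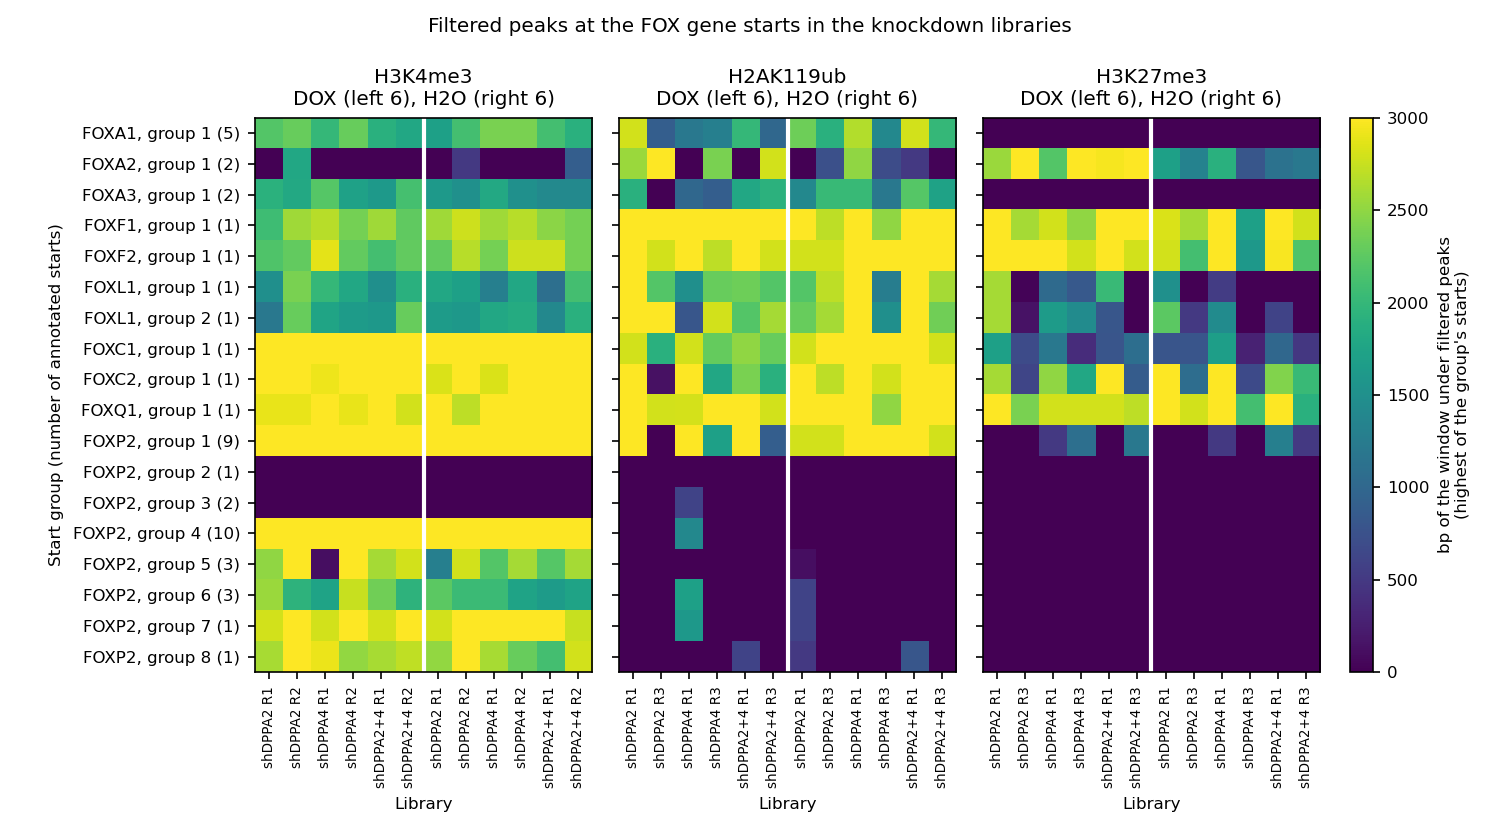
Base pairs (bp) of the 3001 bp start window under filtered peaks for the 18 start groups (starts of a gene no more than 1500 bp apart, number of starts in brackets) in the 12 knockdown libraries of each mark, DOX in the left 6 columns and H2O in the right 6. Each cell shows the highest of the group's starts in that library. FOXA1 and FOXA3 are dark throughout for H3K27me3, FOXA2 is brighter in DOX than in H2O for H3K27me3, and FOXP2 groups 2 and 3 are dark for H3K4me3.

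H3K4me3 over the starts of the endodermal members was narrow. Here and below, a group of several starts is given by its start with the most bases in each library. Values of the FOXA2 start by line, further below, are of its main start alone. FOXA1 had 1800, 2100 and 2300 bp (lowest, median and highest of 6 libraries) under H3K4me3 peaks in DOX and 1700, 2100 and 2400 bp in H2O. FOXA3 had 1612, 1862 and 2212 bp in DOX and 1412, 1512 and 1812 bp in H2O. The libraries of the treatments overlapped for both genes. FOXA2 had 0, 0 and 1800 bp in DOX and 0, 0 and 900 bp in H2O, and only a few libraries were above 0.

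The mesodermal members ranged from narrow to filled windows. FOXC1 was covered over all 3001 bp in every library of both treatments, and FOXC2 over 2929 to 3001 bp in DOX and 2829 to 3001 bp in H2O. FOXF1 had 2074, 2474 and 2674 bp in DOX and 2374, 2574 and 2774 bp in H2O, and FOXF2 had 2100, 2276 and 2876 bp in DOX and 2276, 2526 and 2776 bp in H2O. FOXL1, whose product is made by cells beneath the gut epithelium, was lower, with 1500, 1850 and 2400 bp at its first start in DOX and 1100, 1750 and 2100 bp in H2O. FOXQ1 had 2798 to 3001 bp in DOX and 2698 to 3001 bp in H2O. DOX and H2O libraries overlapped at each of these starts.

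In FOXP2, H3K4me3 was found at 6 of the 8 start groups and the Polycomb marks almost only at the first. Groups 1 and 4 were covered over 3001 bp in every library of both treatments, although group 4, which holds the canonical start at 114414815, had a median of only 5.5 CG in 300 bases. Groups 2 and 3 had no H3K4me3 base in any library. At group 1, H2AK119ub covered 2801 to 3001 bp in H2O, and H3K27me3 covered 0 to 1200 bp in DOX and 0 to 1300 bp in H2O, above the minimum in 3 of 6 libraries each. At group 4, no H2AK119ub base was called in H2O and up to 1400 bp in 1 DOX library, shDPPA4 replicate 1.

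**Figure D2:**
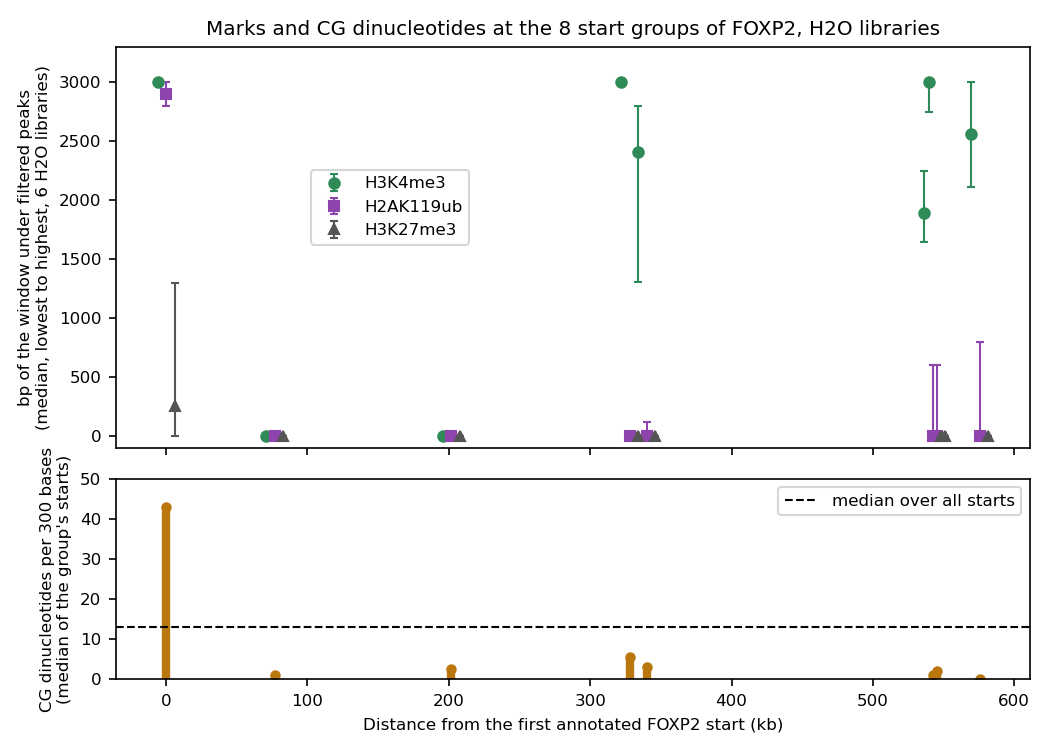
Upper plot, bp of the start window under H3K4me3, H2AK119ub and H3K27me3 peaks at the 8 FOXP2 start groups (median, with bars from lowest to highest of 6 H2O libraries) by distance in kb from the first start, with the marks drawn side by side 6 kb apart for legibility. Each library enters the upper plot with the highest of the group's starts. Lower plot, the median number of CG dinucleotides per 300 bases of each group, which was 43 at the first group and 0 to 5.5 at the others, against 13 over all starts (dashed).

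SUZ12, profiled once in DMSO, was found at most starts that carried H3K27me3 and hardly at those of FOXA1 and FOXA3. SUZ12 peaks covered 3001 bp at the starts of FOXA2, FOXF1, FOXF2 and FOXQ1, 2801 bp at FOXC1 and FOXC2, 1849 bp at the second start of FOXL1, 0 bp at its first start and 1100 bp at the first group of FOXP2. They covered 39 bp at the start of FOXA1 and 0 bp at FOXA3. Over the gene and 10 kb on each side, FOXA1 nevertheless had 9000 bp under SUZ12 peaks, FOXF1 16374 bp and FOXF2 14525 bp, against 0 bp at FOXA3. There was 1 SUZ12 library, so these values have no replicate check.

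Before the effects of depletion, the libraries themselves need a description. Reads in filtered peaks numbered 8394879 to 19379794 per H3K4me3 library and 1330926 to 4136521 per H2AK119ub library. For H3K27me3 the 3 H2O libraries of replicate 3 held 1085365 to 2227464 reads in peaks, against 5989134 to 10345651 in the DOX libraries of replicate 3 and 5951041 to 10545826 in all libraries of replicate 1, and H3K27me3 region results are therefore also given for each replicate number. The 3 H2AK119ub DOX libraries of replicate 3 shared fewer bases with libraries of their own target (median Jaccard index 0.197 to 0.255) than the other 9 did (0.284 to 0.331), and the target they resembled next was H3K27me3 and not H3K4me3. H3K4me3 stood at a start of DPPA2, DPPA4, all 4 epithelial markers looked at and 2 of 4 lung epithelial markers (NKX2-1 and SFTPC) in all 12 H3K4me3 libraries, and at none of 3 endothelial and 4 blood markers, while 3 of 4 fibroblast markers also carried it. The levels of DPPA2 and DPPA4 themselves were not measured in these libraries.

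By the rule that both replicates must show a change, few FOX starts lost or gained a mark on DOX. A start counted as lost in a line when it was marked in both H2O libraries and in neither DOX library, and as gained when the opposite held. No FOX start lost H2AK119ub in any line, of 23 that could in shDPPA2, 25 in shDPPA4 and 23 in shDPPA2+4, while 8.79% of all such starts did over the 3 lines. FOXA2 gained H2AK119ub at 1 start in shDPPA2, of 18 FOX starts that could, against 2.47% of all such starts in that line and 1.5% over the 3 lines. No FOX start lost (41 eligible in each line) or gained H3K4me3, against 0.0682% and 0.313% of all starts. No FOX start lost H3K27me3 (background 2.44%), and FOXP2 gained it at 1 start in shDPPA4, of 29 FOX starts that could (background 0.413% in that line, 0.54% over the 3 lines). FOX starts of a group overlap in their windows, so these counts are of fewer independent places than starts. The counts depend on the rule: on 1 replicate alone, 15 to 26 FOX starts were lost or gained for H2AK119ub and 11 to 14 for H3K27me3, and with peaks of log2 folds above 2 there were 18 and 10.

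At FOXA2, more of the start lay under H3K27me3 peaks with DOX than with H2O. Under H3K27me3 peaks, the main start of FOXA2 (22585455, the start shared by most transcripts) had 2555 and 3001 bp in DOX replicates 1 and 3 of shDPPA2, 2201 and 3001 bp in shDPPA4 and 2955 and 2801 bp in shDPPA2+4. In H2O it had 1700 and 900 bp in shDPPA2, 1500 and 800 bp in shDPPA4 and 400 and 1200 bp in shDPPA2+4. All 6 DOX libraries were above all 6 H2O libraries, which held for 0.86% of the 4536 genes with any H3K27me3 base at the main start, while the reverse held for 0.022%. Of the 8 members with any such base, FOXA2 was the only one without overlap, and it is described here after its values were seen.

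At the same FOXA2 start, the peak that covered it was longer with DOX. It was 3900 and 12600 bp long in shDPPA2 with DOX, 2000 and 11300 bp in shDPPA4 and 3000 and 4700 bp in shDPPA2+4, against 1000 and 500, 1000 and 600, and 400 and 600 bp in H2O. Its log2 fold over input, the authors' value, was 2.76 to 4.71 in DOX and 3.49 to 5.03 in H2O, so the treatments overlapped in enrichment. Input reads per kb in this peak were 0.513 to 1.67 in DOX and 0 to 1.67 in H2O, below the library medians of 2.50 to 3.33. The bases under H3K27me3 peaks over the whole genome were 198859000 to 319057300 per DOX library and 48807600 to 248762900 per H2O library, and the part of this difference in the FOXA2 values was not tested. In parental cells, the same start had 3001, 2855 and 1901 bp with A-485 and 3001, 3001 and 0 bp with DMSO (replicates 2, 3 and 4, the last DMSO library being the shallowest, with 498618 reads in peaks).

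H2AK119ub at the FOXA2 start did not separate the treatments. It covered 2555 and 2746 bp in shDPPA2 with DOX, 0 and 2300 bp in shDPPA4 and 0 and 2801 bp in shDPPA2+4, against 0 and 0, 2301 and 700, and 500 and 0 bp in H2O. All 3 DOX libraries of replicate 3 were high, and these are the libraries that resembled H3K27me3 above. No member had all DOX libraries above or below all H2O libraries for H2AK119ub at its main start, which held for 0.00668% (above) and 0.154% (below) of all genes, or for H3K4me3, with 0.239% and 0%.

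H2AK119ub at the other starts was kept in most DOX libraries but in fewer bases at some. At FOXC1 it covered 1901, 2401 and 2801 bp in DOX (lowest, median and highest) and 2801, 3001 and 3001 bp in H2O. At FOXC2 it covered 129, 2151 and 3001 bp in DOX and 2701, 3001 and 3001 bp in H2O, and at the first FOXP2 group 0 to 3001 bp in DOX and 2801 to 3001 bp in H2O. The lowest DOX value at FOXC2 and at FOXP2 was in replicate 3 of shDPPA2. At FOXA1 it covered 901, 1250 and 2801 bp in DOX and 1400, 2171 and 2801 bp in H2O, and at FOXA3 0, 1400 and 1926 bp in DOX and 1200, 1876 and 2212 bp in H2O. FOXF1, FOXF2 and FOXQ1 kept 2701 to 3001 bp in every DOX library and 2501 to 3001 bp in every H2O library. DOX and H2O libraries overlapped at each of these starts, FOXC1 sharing only the value of 2801 bp.

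H3K27me3 at the starts of FOXF1, FOXF2, FOXQ1, FOXC2, FOXC1 and FOXL1 overlapped between treatments. FOXF1 had 2501 to 3001 bp in DOX and 1701 to 3001 bp in H2O, FOXF2 had 2801 to 3001 bp in DOX and 1601 to 3001 bp in H2O, and FOXQ1 had 2401 to 3001 bp in DOX and 1900 to 3001 bp in H2O. FOXC2 had 629 to 3001 bp in DOX and 672 to 3001 bp in H2O, and FOXC1 had 386 to 1701 bp in DOX and 286 to 1686 bp in H2O. The first start of FOXL1 was marked in 4 of 6 DOX and 2 of 6 H2O libraries. None of these starts separated the treatments.

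Over the gene and 10 kb on each side, covered length was compared in 6 pairs of DOX and H2O libraries with the same line and replicate number (exact two-sided sign-flip permutation test, smallest possible p 0.0312). Labels give replicate numbers only, the study calls replicates biological, and the spread that enters each p-value is that between these libraries. The test takes the 6 pairs as independent, although the 3 lines share replicate numbers and shDPPA2+4 was made from shDPPA2 cells. For H3K27me3, every replicate 3 pair sets a deeper DOX library against a shallow H2O library, so these p-values can be too small. Within a line, deviations of same-numbered DOX and H2O libraries correlated at r of −0.0880 to 0.307 for H3K27me3. The FOXA2 window had 11503 and 17203 bp of H3K27me3 in shDPPA2 with DOX, 9000 and 17158 bp in shDPPA4 and 9300 and 12203 bp in shDPPA2+4, against 6400 and 4400, 9500 and 1700, and 2903 and 3700 bp in H2O. It averaged 12728 ± 3663 bp in DOX and 4767 ± 2801 bp in H2O (SD, n = 6 each) and was higher in 5 of 6 pairs (exact permutation p = 0.0625, adjusted p = 0.345 over all genes).

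The FOXA1 window was the only member window higher in 6 of 6 pairs. H3K27me3 covered 13159 and 6500 bp in shDPPA2 with DOX, 13400 and 9759 bp in shDPPA4 and 14759 and 7559 bp in shDPPA2+4, against 12600 and 6159, 12359 and 4800, and 12200 and 5400 bp in H2O. The mean was 10856 ± 3408 bp in DOX and 8920 ± 3824 bp in H2O (exact permutation p = 0.0312, adjusted p = 0.345, n = 6 each). All replicate 1 libraries were above all replicate 3 libraries, so the spread between replicate numbers was larger than that between treatments. Of all windows with any H3K27me3, 3.9% were higher and 0.115% lower in 6 of 6 pairs.

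Among the other members, FOXL1 and FOXQ1 had more H3K27me3 covered length with DOX in 5 of 6 pairs (each exact permutation p = 0.0625, adjusted p = 0.345, n = 6 each). FOXL1 averaged 11506 ± 4060 bp in DOX and 7637 ± 5583 bp in H2O, and FOXQ1 12912 ± 2098 bp in DOX and 10268 ± 4177 bp in H2O (SD, n = 6 each). In shDPPA2, shDPPA4 and shDPPA2+4, DOX minus H2O at FOXQ1 was 1200, −900 and 2161 bp in replicate 1. In replicate 3 it was 1900, 6503 and 5000 bp. At FOXL1 it was 1100, −400 and 8000 bp in replicate 1, and 4467, 7911 and 2133 bp in replicate 3. FOXC2 was also higher in 5 of 6 pairs, at 7131 ± 3670.2 bp in DOX and 6009 ± 3202 bp in H2O (exact permutation p = 0.156, n = 6 each). FOXF2 was higher in 4 of 6 pairs, at 17892 ± 1541 bp in DOX and 15421 ± 4499 bp in H2O (exact permutation p = 0.156, n = 6 each). In the same order of lines, FOXF2 differed by −1100, −800 and 1600 bp in replicate 1 and by 3000, 7025 and 5100 bp in replicate 3. FOXC2 differed by 100, 1400 and 4000 bp in replicate 1 and by 200, 1828 and −800 bp in replicate 3. FOXF1, the most covered member beside FOXF2, averaged 16157 ± 1036 bp in DOX and 16045 ± 2143 bp in H2O. FOXA3 had no H3K27me3 base in its window in any of these libraries. Covered length has no correction for depth, and the H2O libraries of replicate 3 were the shallow ones. The part of depth in these lengths was not tested. Reads in the region over the FOXQ1 start and in the FOXF2 region, tested below, had log2 fold changes below 0 (−0.45 and −0.54).

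At FOXP2, H2AK119ub covered fewer bases in most DOX libraries. Its window had 10100 and 0 bp in shDPPA2 with DOX, 14700 and 2100 bp in shDPPA4 and 10700 and 2500 bp in shDPPA2+4, against 18500 and 6400, 14100 and 5300, and 12900 and 6900 bp in H2O. It was lower in 5 of 6 pairs and averaged 6683 ± 5920 bp in DOX and 10683 ± 5279 bp in H2O (exact permutation p = 0.0625, adjusted p = 0.776, n = 6 each). The DOX values of 0, 2100 and 2500 bp were those of replicate 3, the libraries that resembled H3K27me3 above. In replicate 1, shDPPA4 had more bases with DOX than with H2O (14700 against 14100 bp). FOXA2 averaged 4083 ± 3461 bp in DOX and 1633 ± 1633 bp in H2O (exact permutation p = 0.188, n = 6 each), and FOXF1 20261 ± 1804 bp in DOX and 20024 ± 1992 bp in H2O. No member window was lower or higher in 6 of 6 pairs, against 1.86% and 0.255% of all windows with H2AK119ub. The same was true of H3K4me3, where 0.139% of all windows were lower and 6.79% higher. The H3K4me3 window nearest to such a pattern was that of FOXC1, with 10814 ± 902 bp in DOX and 10265 ± 922 bp in H2O, higher in 5 pairs and equal in 1 (exact permutation p = 0.0625, n = 6 each).

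Read counts were then tested in merged regions with a peak in all 12 libraries of a mark (edgeR quasi-likelihood test, called at a Benjamini-Hochberg adjusted p under 0.05 and a log2 fold change of at least 0.5 in size). Levels are given in CPM, the count of a region per 1000000 TMM-scaled reads in filtered peaks. For H3K27me3, 0% of 14942 regions were called and 0 of the 11 FOX regions, although 24.7% of all regions and 7 FOX regions had an unadjusted p under 0.05. DESeq2 called 1470 regions in all, 5 of them of members. The median log2 fold change of the FOX regions was −0.54, against 0.04 over all regions, with 10 of 11 below 0 and FOXA2 alone above 0.

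Against the other members, H3K27me3 in the FOXA2 region (chr20:22574401-22588600) was higher with DOX. It had 42.7 and 74.0 CPM in shDPPA2 with DOX, 40.5 and 65.8 in shDPPA4 and 31.1 and 72.3 in shDPPA2+4, against 24.4 and 42.5, 36.8 and 31.3, and 13.6 and 41.6 in H2O. Every pair was higher in DOX, which held for 6.46% of all regions, and the log2 fold change was 0.75 ± 0.23 (SE, edgeR adjusted p = 0.112). With the called length of each library as an offset, it was −0.66 and the median of all regions −0.86.

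The region upstream of FOXC1 (chr6:1604301-1609500) was the only FOX region lower in 6 of 6 pairs, as were 5.57% of all regions. It had 22.7 and 12.3 CPM in shDPPA2 with DOX, 29.6 and 12.02 in shDPPA4 and 25.1 and 11.7 in shDPPA2+4, against 30.2 and 47.5, 29.6 and 35.6, and 32.7 and 44.3 in H2O (log2 fold change −1.01 ± 0.31 SE, edgeR adjusted p = 0.112). The FOXC1 replicate 1 pairs were close to each other, and the replicate 3 pairs far apart.

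FOXF1, FOXF2 and the shared region of FOXC2 and FOXL1 had the same split by replicate number. The FOXF1 region (chr16:86479201-86518200) had 167, 203 and 179 CPM in replicate 1 of shDPPA2, shDPPA4 and shDPPA2+4 with DOX, against 187, 197 and 209 in H2O. In replicate 3 it had 176, 164 and 207 with DOX, against 350.0, 429 and 373 in H2O. The FOXF2 region (chr6:1358801-1400200) averaged 184 ± 37.1 in DOX and 268 ± 44.3 in H2O (log2 fold change −0.54 ± 0.16 SE, edgeR adjusted p = 0.112). The region of FOXC2 and FOXL1 (chr16:86564101-86572200) averaged 21.9 ± 13.2 in DOX and 41.9 ± 8.95 in H2O (log2 fold change −1.14 ± 0.38 SE, edgeR adjusted p = 0.120).

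Fitted on replicate 3 alone, 8 of 11 FOX regions were called, 7 lower and FOXA2 higher, as were 4192 of 15902 regions. This fit had only line and treatment as terms, with 1 library per line and treatment, so the 3 lines served as replicates of DOX. There, log2 fold changes were −1.13 at FOXF1, −0.96 at FOXF2, −0.88 at FOXQ1, −1.86 upstream of FOXC1 and −2.25 at FOXC2 and FOXL1. The other FOXC1 region (chr6:1623501-1627700), at −2.33, lay over the start of the neighbour GMDS. On replicate 1 alone none was called, and the values were −0.12 at FOXF1, −0.19 at FOXF2, −0.27 at the upstream region of FOXC1 and −0.18 at FOXC2 and FOXL1. FOXA2 kept nearly the same size in both, 0.83 (edgeR adjusted p = 0.0279) on replicate 3 and 0.70 (adjusted p = 0.977) on replicate 1. Leaving out shDPPA4 H2O replicate 1 alone also called 8 of 11 FOX regions, among 2975 of 14999 regions, and leaving out any other single library called none. The lower values of the other members therefore rest on replicate 3, whose H2O libraries were the shallow ones, and the part of depth in them was not tested.

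**Figure D3:**
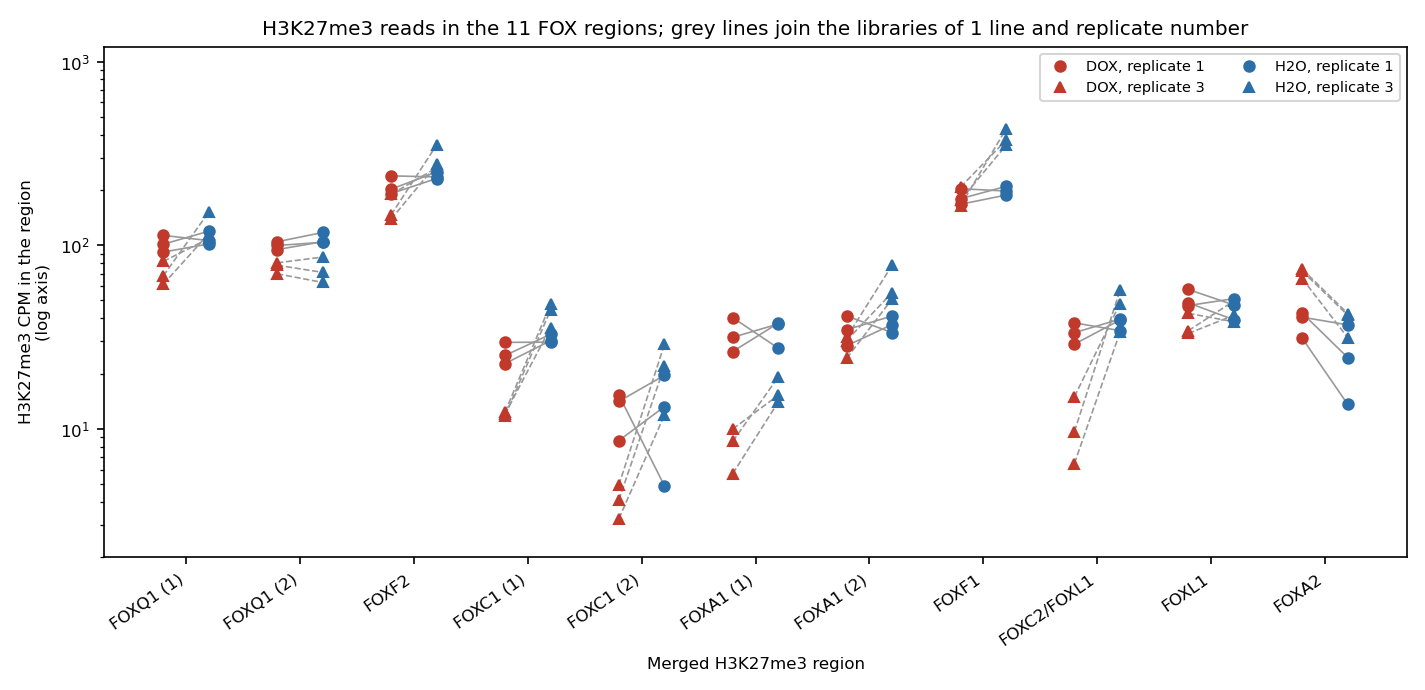
H3K27me3 CPM (log axis) in the 11 FOX regions, DOX (red) left of H2O (blue), with lines joining libraries of the same line and replicate number (circles replicate 1, triangles replicate 3). The triangles of FOXF1, FOXC1 and FOXC2/FOXL1 lie far lower in DOX than in H2O while the circles are nearly level, and FOXA2 is higher in DOX in all 6 pairs.

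For H2AK119ub, 0% of 6161 regions were called and 0 of 9 FOX regions. No region of FOXA2 or FOXP2 and none over the FOXA3 start was among the 9, since not every library had a peak there. A region that lost its whole peak in any library was not tested, so such a loss could not be called. An unadjusted p under 0.05 was found for 21.5% of all regions and 0 FOX regions, and DESeq2 called 405 regions and 0 of members. The median log2 fold change was −0.10 for the FOX regions and −0.02 for all. The large FOXF1 domain (chr16:86470801-86523700) was higher with DOX in 6 of 6 pairs, as were 5.02% of all regions, at 759 ± 175 CPM in DOX and 663 ± 97.0 in H2O (log2 fold change 0.18 ± 0.0988 SE, edgeR adjusted p = 0.314). No FOX region was lower in 6 of 6 pairs (background 4.4%). Fitted on replicate 3 alone, FOXC1 (−0.91) and FOXA3 (−1.14) were called lower and FOXA2 (2.47) higher, among 2382 of 9083 regions called. The FOXA3 region (chr19:45881101-45886800) lay over the start of the neighbour IRF2BP1 and not over that of FOXA3. On replicate 1 alone none was called, with values of 0.03 at FOXC1 and 0.07 at FOXA3 (edgeR adjusted p = 0.999 each).

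For H3K4me3, 1 of 25 FOX regions was called over the 3 lines, against 0.521% of 22060 regions. It lay inside FOXP2 (chr7:114529501-114537000), away from the annotated start groups (log2 fold change −0.64 ± 0.17 SE over the 3 lines, edgeR adjusted p = 0.0320). In shDPPA4 it held 38 and 33 reads with DOX, against 147 and 106 in H2O (log2 fold change −2.32 ± 0.32 SE, edgeR adjusted p = 0.0159), 1 of the 0.0363% of regions called in that line. In shDPPA2 it held 146 and 284 reads with DOX, against 74 and 147 in H2O (log2 fold change 0.32 ± 0.26 SE), and in shDPPA2+4 120 and 92 reads with DOX, against 81 and 80 in H2O (0.09 ± 0.29 SE). Both shDPPA4 DOX libraries were below every other library, and the changes in shDPPA2 and shDPPA2+4 did not pass the test.

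The called length of this FOXP2 region moved with its reads. H3K4me3 peaks covered 1000 and 900 bp in shDPPA4 with DOX, against 4600 and 3700 bp in H2O. The difference between shDPPA4 and shDPPA2 was −2.65 on the log2 scale (edgeR adjusted p = 0.0871), so it did not pass the threshold. In shDPPA4 the call ended without the replicate block (log2 fold change −2.33, adjusted p = 0.670), and when any 1 of the 4 shDPPA4 libraries was left out (log2 fold change −2.47 to −2.18, adjusted p = 0.0775 to 0.171), so the size was kept. The size was not kept with called length as an offset, where the log2 fold change was −0.20. Nor was it kept with no fold filter on peaks, at −0.30 in shDPPA4 (edgeR adjusted p = 0.822) and −0.03 over the 3 lines. DESeq2 gave −2.32 in shDPPA4 with no adjusted p, since its filter left the region out. Over the 3 lines, the call was lost in 10 of the 12 fits that left out 1 library in turn. No other H3K4me3 region of FOXP2 was called, and its upstream start region had 200.3 ± 10.4 CPM in DOX and 200.4 ± 15.9 in H2O.

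**Figure D4:**
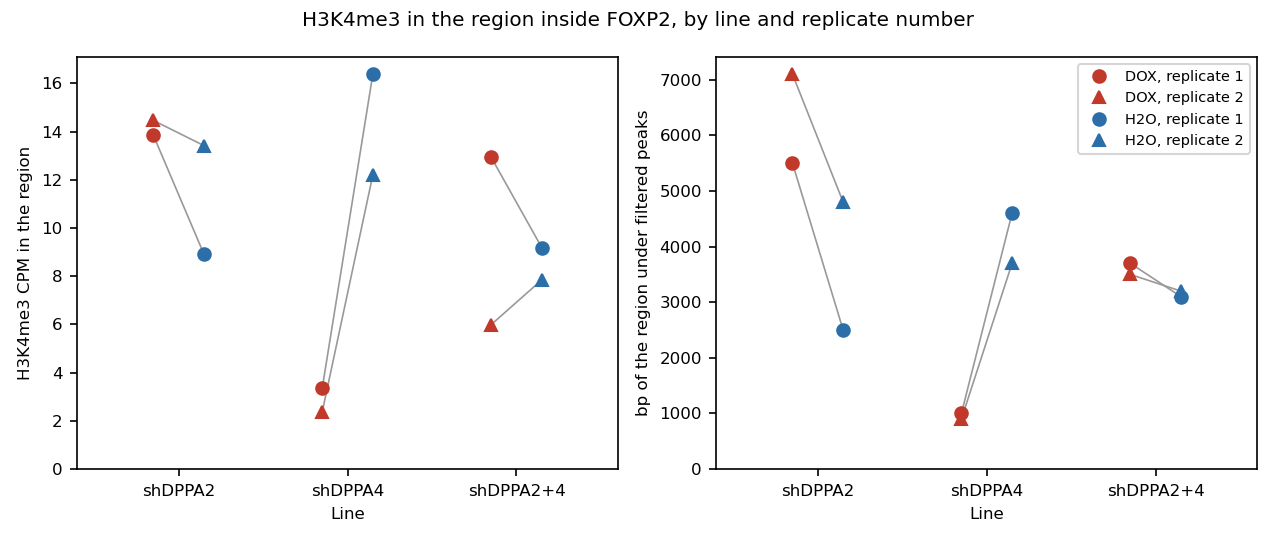
H3K4me3 in the called region inside FOXP2 by line, as CPM (left) and bp under filtered peaks (right), with DOX (red) left of H2O (blue) and lines joining libraries of the same replicate number. The 2 shDPPA4 DOX libraries lie lowest in both plots, while shDPPA2 DOX libraries lie above their H2O partners.

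A further 3 FOX regions had an H3K4me3 adjusted p under 0.05 with a change too small to be called, 4 of 25 in all, as against 8.88% of all regions. The FOXA1 start region (chr14:37593801-37596300) was higher in 6 of 6 pairs, as were 9.08% of all regions, at 40.5 ± 4.48 CPM in DOX and 35.5 ± 2.61 in H2O (log2 fold change 0.19 ± 0.0481 SE, edgeR adjusted p = 0.0289). The FOXF1 start region (chr16:86507701-86511800) had 26.6 ± 0.677 in DOX and 30.8 ± 3.73 in H2O (−0.22 ± 0.0622 SE, adjusted p = 0.0439), and the FOXP2 region over its last start group (chr7:114643601-114664400) had 64.2 ± 11.7 in DOX and 79.5 ± 16.0 in H2O (−0.30 ± 0.0758 SE, adjusted p = 0.0256). DOX and H2O libraries overlapped in each of the 3 regions. Another FOXP2 region, chr7:114628301-114634600, was lower in 6 of 6 pairs, as were 9.26% of all regions (log2 fold change −0.14).

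With A-485, H3K27ac could be followed at few members, since only FOXA3, FOXC1 and FOXP2 had it in every DMSO library. The library labelled DMSO replicate 4 stood apart, with 153454800 bp under peaks, against 20214500 to 44731600 bp in the other 3 H3K27ac libraries. By the input counts in their lists, both H3K27ac libraries labelled replicate 4 carried the input of the other treatment, and whether the inputs or the ChIP labels were exchanged cannot be told apart. Values of replicate 4 are given under the deposited labels, and the direction of each H3K27ac result in replicate 4 depends on them. Reads in filtered peaks were 780375 and 603895 with A-485 and 2709073 and 5647079 with DMSO.

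FOXC1 had the clearest difference in H3K27ac coverage. Its window had 1900 and 700 bp with A-485 (replicates 2 and 4), against 7600 and 6497 bp with DMSO, and its start 700 to 1700 bp, against 3001 bp in both DMSO libraries. FOXP2 had 22400 and 11300 bp with A-485 and 40800 and 11474 bp with DMSO, and FOXA3 800 and 700 bp with A-485 and 1600 and 11909 bp with DMSO. By these labels, both A-485 libraries were below both DMSO libraries in the windows of FOXC1 and FOXA3, and in the FOXP2 window they overlapped. At the first start group of FOXP2, H3K27ac covered 674 to 1974 bp with A-485 and 2074 to 3001 bp with DMSO. At group 4, which holds its canonical start, it covered 0 to 1286 bp and 600 to 2801 bp, which overlap. The FOXA3 start had 612 to 800 bp with A-485 and 812 to 1612 bp with DMSO. In replicate 2 alone, the A-485 library was below the DMSO library at all 3 genes. FOXA1 (5400 bp), FOXF2 (8500 bp), FOXF1 (2700 bp), FOXQ1 (1000 bp), FOXC2 and FOXL1 (900 bp each) had H3K27ac in the DMSO replicate 4 library alone, and FOXA2 had none in any library.

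**Figure D5:**
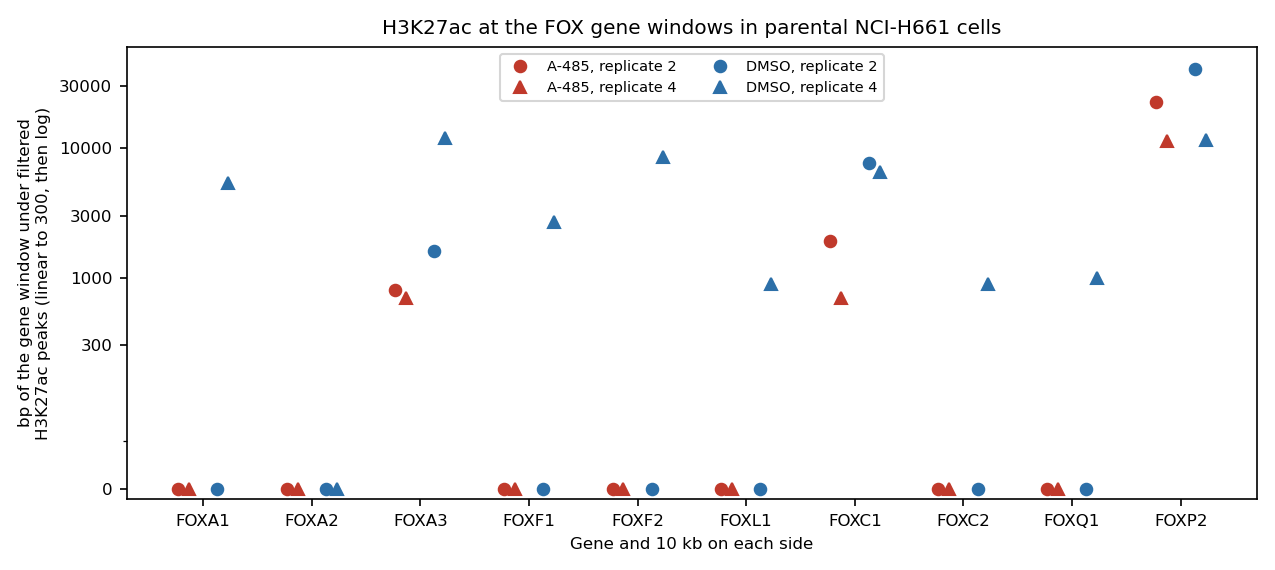
Base pairs of each FOX gene with 10 kb on each side under filtered H3K27ac peaks (axis linear up to 300 bp, then logarithmic) in parental cells, A-485 (red) left of DMSO (blue), circles replicate 2 and triangles replicate 4. FOXC1, FOXA3 and FOXP2 have peaks in all 4 libraries, 6 members only in the DMSO replicate 4 library, and FOXA2 in none.

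No FOX start lost H3K27ac, of 21 starts of 3 genes that could, against 11.8% of all starts, and none gained it (0.0316%). In regions with a peak in all 4 libraries, 0% of 8967 were called, with 7.73% and 2 of 6 FOX regions at an unadjusted p under 0.05, and DESeq2 called 11 regions, with an adjusted p for only 1 of the 6 FOX regions. FOXC1 held 43 and 14 reads with A-485, against 197 and 160 with DMSO (log2 fold change −0.80 ± 0.46 SE, edgeR adjusted p = 0.806). Both FOXP2 regions with a low p lay in the stretch over its last start group and had fold changes above 0 although their reads were fewer with A-485. The FOXP2 region chr7:114657101-114663100 held 124 and 29 reads with A-485, against 176 and 37 with DMSO (log2 fold change 1.55 ± 0.40 SE, edgeR adjusted p = 0.518). TMM scaling centres the changes, and scaling by total reads in peaks moved the median of all H3K27ac regions by 0.48 on the log2 scale. Without DMSO replicate 2, this FOXP2 region was called (log2 fold change 2.84, edgeR adjusted p = 0.0479) among 197 of 9058 regions.

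The Polycomb marks of the members did not pass the test with A-485. Replicate 3 of H2AK119ub shared fewer bases with its own target (median Jaccard index 0.134 with A-485, 0.120 with DMSO) than with SUZ12 (0.164 and 0.159). Replicate 4 of H2AK119ub did not. H3K27me3 DMSO replicate 4 had 0.0684 with its own target and 0.0977 with SUZ12. Reads in filtered H2AK119ub peaks were 1471580 and 541369 with A-485 and 2133807 and 390762 with DMSO (replicates 3 and 4). For H2AK119ub, 0% of 4515 regions and 0 of 9 FOX regions were called (edgeR, with 162 regions in all at an unadjusted p under 0.05, and 0 calls by DESeq2), and the FOX median was 0.02 on the log2 scale. For H3K27me3, 0% of 8822 regions and 0 of 6 FOX regions were called (267 regions in all at an unadjusted p under 0.05, and 1 call by DESeq2). All 6 H3K27me3 FOX regions had values above 0, with a median of 0.40 against −0.01 over all regions and p from 0.108 to 0.355. In CPM, A-485 was above DMSO of the same replicate number in 3 of 3 pairs at FOXF2, FOXF1 and the shared region of FOXC2 and FOXL1. This held in 2 of 3 pairs at FOXQ1 and FOXC1, and in 1 of 3 at the distal FOXL1 region. No FOX start lost H2AK119ub (15 eligible, background 10%) or gained it (0.992%). None could lose H3K27me3, since no FOX start was marked in all 3 DMSO libraries (background lost 0.682%), and none gained it (0.0146%).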

How the data were processed

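The submitters' notes name Trim Galore 0.6.6, BWA 0.7.13, the hg38 build, SAMtools 1.9, Picard 2.6.0 and deepTools 3.5.0 for the processing of the reads. Of 59 samples, 51 had a peak list (36 knockdown, 15 inhibitor), called by the authors in each library against an input, with EPIC2 for histone marks. The SUZ12 list has EPIC2 columns, although the study names MACS2 for it. The 8 inputs entered only through these lists, and the mouse spike-in was left out. Each line and treatment had a single input, so its replicates did not have inputs of their own. The part of the inputs in differences between treatments was not tested. For each peak the authors give raw counts of ChIP and of input reads, without normalization. Deposited log2 values are folds of ChIP over input. They and the deposited FDR served to filter peaks, and the log2 fold is also printed for the peak at the FOXA2 start. The p-value and score deposited by the authors were not used. Counts carry no correction for the spike-in, so a change common to all regions is not seen.

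Kept were peaks whose log2 fold exceeded 1 at an FDR below 0.05, the study's thresholds, and the study's blacklist was not applied. The reference genome, GRCh38, matched the chromosome lengths of hg38. Peaks of all libraries of a mark were merged into regions, in which the counts of each library's own peaks were added up. Of these, the regions where all libraries had a peak and the mean was at least 10 reads were fitted with edgeR 4.0.16 (R 4.3.3, TMM, quasi-likelihood, replicate number as a block, after the study's batch term), with DESeq2 1.42.0 as an alternative. P-values were adjusted over all regions or all genes (Python 3.11.15, NumPy 2.4.6, pandas 2.3.3). The edgeR script was tested on simulated data. Deviations of same-numbered libraries correlated between groups at r of 0.342 to 0.525 for H3K4me3, −0.0880 to 0.685 for H3K27me3 and 0.238 to 0.706 for H2AK119ub, above 0.1 in 15, 11 and 15 of 15 group pairs. The members, lists and tests were chosen with earlier results of these data known. All 10 members are described. Other genes are named if they neighbour a member, if they are FOX or partner genes with a start lost or gained, or if they are among the 3 genes most like a member in bases under peaks at the main start. Alternatives were another tool, scaling, peak filter, start window, gene flank, minimum length, the fit without the block, and leaving out each library or replicate. Knockdown region fits on 1 replicate number had line and treatment as terms, with the 3 lines as replicates of the treatment.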

Additional observations from a re-analysis of the deposited data

Results flagged for a closer look

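Of 150 groups of 6 knockdown libraries, 8 (5.33%) held a library far from the other 5 by Dixon's criterion, and chance gives about 1 in 20. In gene windows these were shDPPA2 DOX replicate 2 at FOXA2, with 1800 bp under H3K4me3 peaks where the other DOX libraries had 0, H2O replicate 1 of shDPPA2+4 at FOXA3, with 6597 bp under H2AK119ub peaks, and H2O replicate 1 of shDPPA4 at FOXF1, with 3500 bp under H3K4me3 peaks. In regions, FOXA1 had a high value of 19.1 H3K4me3 CPM in DOX replicate 2 of shDPPA2+4. H3K27me3 was high in H2O replicate 3 of shDPPA4, the shallowest H3K27me3 library of the knockdown lines, at FOXF2 (351 CPM) and FOXQ1 (152). H2AK119ub in H2O replicate 1 of shDPPA2 was low in the distal FOXL1 region (18.9 CPM) and high at FOXQ1 (160.4).

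In 4 cases both pairs of a line moved one way and both pairs of another line the opposite way, and these differences were not tested. In the FOXP2 window, H3K4me3 coverage (DOX minus H2O) was 12650 bp larger in shDPPA2 than in shDPPA4 and 16600 bp larger in shDPPA2+4 than in shDPPA4. In the FOXF1 window, H2AK119ub coverage was 4700 bp larger in shDPPA2 than in shDPPA2+4, and H3K27me3 coverage 2113 bp larger in shDPPA2+4 than in shDPPA2. In reads, 135 tests of differences between lines over the member regions gave 0 with an edgeR adjusted p under 0.05.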

How the results depend on the processing

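Of 1223 values of 67 single FOX regions under alternatives, 1097 kept their direction and side of the threshold, 76 uncalled values changed sign, 24 lost and 26 gained a call, and 0 called values turned round. For H3K4me3 the single called FOX region fell to 0 with no replicate block, with a peak required in only 6 of 12 libraries and with no fold filter, in shDPPA4 also to 0 with called length as an offset, and ranged from 0 to 1 when replicates were left out. With the offset over 3 lines, FOXF1 (86515401) was called instead (−0.65), and without shDPPA2+4 DOX replicate 2, FOXF2 (1392601, −0.77). All H3K4me3 calls split into 42 higher and 73 lower, 58 and 56 with scaling by total reads and 1 and 89 with the offset. No replicate block left 0 of 22060 H3K4me3 regions called, and the block changed no other count of FOX regions. DESeq2 called 5 FOX regions for H3K27me3. It gave no adjusted p to 22 of 25 H3K4me3 FOX regions in shDPPA4, the called one included, and to 5 of 6 H3K27ac FOX regions, so these counts by DESeq2 are left out. Leaving out replicates gave 0 to 3 called FOX regions for H2AK119ub, 0 to 8 for H3K27me3 and 0 to 1 for H3K27ac.

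FOX windows moving one way in every pair numbered 0 for H2AK119ub, 0 for H3K4me3 and 1 for H3K27me3. For H2AK119ub they were 0 to 4 without 1 replicate and 1 without the shDPPA4 line. For H3K4me3 they were 1 with log2 folds above 2, 1 over gene bodies, 3 with 50 kb flanks, 2 without either replicate and 4 without shDPPA4. For H3K27me3 they were 0 with no fold filter, 2 with log2 folds above 2, 0 with 50 kb flanks, 2 to 5 without 1 replicate, 4 without shDPPA4 and 2 without shDPPA2+4. Fewer pairs make this easier to meet.

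FOX starts lost or gained numbered 1 for H2AK119ub, 0 for H3K4me3 and 1 for H3K27me3. With a 1500 bp minimum they were 3, 2 and 2, with log2 folds above 2 they were 18, 6 and 10, and with 500 bp on each side 2, 1 and 6. Without 1 replicate they were 15 to 26, 2 to 3 and 11 to 14, and with no fold filter H3K27me3 gave 0. With A-485 they were 0, and 3 with no fold filter, 1 with 500 bp and 6 to 23 without 1 replicate for H3K27ac, and 1 with 500 bp and 3 to 7 without 1 replicate for H2AK119ub. The smallest sign-flip p with 6 pairs is 0.0312, and scaling by total reads moved the median of all regions by −0.34 for H2AK119ub on DOX.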

Other observations

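Among the other 34 genes of the FOX family, H3K27ac was lost with A-485 at a start of 8 of the 23 genes that could lose it (FOXD2, FOXD3, FOXE3, FOXH1, FOXL2, FOXN4, FOXO4 and FOXO6), against 2438 (19.9%) of 12224 such genes in all and none of 3 members. The difference between these shares was not tested. With DOX in shDPPA4, 3 of 28 eligible family genes (FOXN1, FOXN2 and FOXN3) lost H2AK119ub at a start, against 15.7% of all such genes, and FOXR1, 1 of 16, gained it, against 1.21%. In shDPPA2+4, FOXM1 lost it, 1 of 29 against 7.70% of all. FOXE3, 1 of 9, lost H3K27me3 in shDPPA2, against 5.10% of all, and FOXP1, a relative of FOXP2 and 1 of 17, lost H2AK119ub with A-485, against 11.03% of all. In read counts, 0 of 46 H3K4me3 regions of these genes were called, against 1 of 25 member regions (edgeR, with 8 and 7 at an unadjusted p under 0.05). Of 14 H3K27me3 regions of the family 0 were called, and their median log2 fold change was −0.40, from −1.58 to 1.49.

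Of 24 partners of the members in endoderm and mesoderm, 20 carried H3K4me3 in all 12 knockdown libraries. Of the 10 partners with H3K27ac in both DMSO libraries, 5 lost it with A-485 at a start: BMP4, a ligand that patterns mesoderm, GLI2, a transducer of Hedgehog signals, HHEX, MIXL1 and NKX3-2. This stands beside 19.9% of all genes that could lose it, and the difference was not tested. GLI1, HHEX and MIXL1, 3 of 13 partners, lost H2AK119ub with A-485, against 11.03% of all genes, and GLI1 and TBX4, 2 of 22, lost it in shDPPA4, against 15.7%. TBX4, 1 of 8, gained it in shDPPA2+4, against 2.86%, and TBX5, 1 of 14, gained H3K27me3 in shDPPA2, against 2.18%. Each of these H3K27ac counts rests on the labels of replicate 4, whose lists carried the input of the other treatment. The H2AK119ub losses with A-485, that of FOXP1 included, rest in part on replicate 3, which resembled SUZ12 more than its own target.

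Over all 51 libraries, the genes outside the family whose main starts were most like a member in bases under peaks were SLC35D3, NEUROG3 and EN1 for FOXQ1 (mean absolute difference 204, 205 and 209 bp), EGFR, FAT3 and FAM163A for FOXF2 (187, 198 and 200.4 bp) and KCNA1, FAM3B and SRRM4 for FOXA2 (303, 338 and 340.2 bp). For FOXA1 they were COL9A2, SLC29A3 and MYBPC2 (174, 174 and 178 bp), and for FOXA3 SERHL2, NME2 and MT1F (158, 169.7 and 179.8 bp). For FOXP2, they were BCORL1, HOXB4 and HES7 (237, 253 and 259 bp), and for FOXC1 LHX4, OTX1 and EGR3 (363, 365 and 374 bp). For FOXF1 they were GRID1, IRF4 and KCND3 (211, 217 and 221 bp), for FOXC2 SEMA5B, FGF9 and HMX3 (259.5, 289.9 and 320.02 bp) and for FOXL1 SCUBE2, GRIK4 and P2RX2 (367, 390.5 and 406 bp).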
